A study of Mus musculus with 24 samples.

Results

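The transcripts examined here encode the proteins that write, copy, remove and protect DNA methylation in the egg. They were 10 genes taken by name from the 25965 entries of an expression table of single mouse oocytes: Dnmt1, Dnmt3a, Dnmt3b, Dnmt3l, Uhrf1, Tet1, Tet3, Dppa3, Zfp57 and Trim28. Each name matched 1 entry. The oocytes came from adult females after natural ovulation and belonged to 2 genotypes. The first was Thy1.2-AMHTg/0, which carries an AMH transgene named for the Thy1.2 promoter and overexpresses anti-Müllerian hormone (AMH), a hormone made by granulosa cells that restrains follicle growth. The second was wild type, labelled Thy1.2-AMH0/0. There were 10 transgenic and 11 wild-type oocytes from 4 females of each genotype, with 1 female of each genotype in each of 4 sequencing lanes, and 1 library of the amplification kit's control RNA. All oocytes had been taken from the oviduct and stripped of cumulus cells and zona. The labels name no strain and no exact age. The female was the replicate (n = 4 in each group).

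In mammals DNMT3A, with its catalytically inactive partner DNMT3L, sets the methylation of the growing oocyte, and DNMT1, guided to replicated DNA by UHRF1, copies it. TET enzymes oxidise methylated cytosine, and TET3 is the form best known from the egg, where it acts on the genome after fertilisation. DPPA3 (also called STELLA or PGC7) restrains TET3 and UHRF1 in the oocyte and zygote, while the zinc finger protein ZFP57 and its partner TRIM28 (KAP1) keep imprinted regions methylated when the rest of the genome is reprogrammed.

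Levels are given as RPM, which counts the reads of a gene among 1000000 reads in its library. Oocyte libraries held between 20400000 and 33300000 reads (median 22500000), so 3 reads correspond to 0.0900 to 0.147 RPM. Amh itself had 0 reads in all 10 transgenic oocytes, and 1 read in 1 of the 11 wild-type oocytes, so the oocytes' own transcripts do not check the genotype labels. RPM is a share of each library, so the amount of RNA per oocyte is not measured. The label of the cells was checked against 12 oocyte markers, whose summed level was 18642 to 28658 RPM in the transgenic and 17234 to 32704 RPM in wild-type oocytes, against 17.5 RPM in the control RNA. Together, 18 markers of cumulus and granulosa cells came to 9.49 to 99.8 RPM in transgenic oocytes and to 10.5 to 67.3 RPM in wild-type oocytes, and Foxl2 and Sult1e1 had no read in any oocyte. In all oocytes but 1 most of this sum was Gata4, which alone reached 99.1 RPM in oocyte C of the transgenic female of lane 1. Without Gata4 the sum of the 17 others was 0.0972 to 3.38 RPM in the transgenic and 0.196 to 40.9 RPM in wild-type oocytes. The highest of these, oocyte C of the wild-type female of lane 2, stood apart from a wild-type median of 2.65 RPM, and the part of this in its values was not tested.

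All 10 genes were expressed in every oocyte at 1 RPM or more. The smallest number of reads behind any value was 53, for Tet1, and the largest was 100922, for Dppa3. Levels of different genes were compared per 1000 bases of annotated exon, since a longer transcript yields more reads. On this scale Dppa3 stood far above the rest, at 3172 ± 705 RPM per 1000 bases (SD over 8 females), which was higher than in 99.9% of all genes tested with an annotated length. Dnmt1 followed at 146 ± 15.1 and Zfp57 at 141 ± 28.8 RPM per 1000 bases. These 2 overlapped in the range of their female means, so their order is not settled, and with the longest transcript in place of all exons Zfp57 (184) came before Dnmt1 (156). Without division by length, means over the 8 females were 2642 RPM for Dppa3, 917 RPM for Dnmt1 and 887 RPM for Tet3. Whether reads cover long and short transcripts alike was not tested.

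Tet3 stood at 75.6 ± 9.10, Uhrf1 at 53.7 ± 16.4 and Trim28 at 42.2 ± 2.75 RPM per 1000 bases, and each of these overlapped with its neighbour in the order. Dnmt3a, at 19.7 ± 4.15 RPM per 1000 bases, lay below all of them and did not overlap with Trim28. Dnmt3l (10.0 ± 6.08) and Dnmt3b (5.89 ± 1.88) followed. The range of Dnmt3l overlapped with those of both Dnmt3a and Dnmt3b, each through 1 female only. With Dnmt3a this was the wild-type female of lane 4, at 24.7 for Dnmt3l. With Dnmt3b it was the transgenic female of lane 1, at 10.5 for Dnmt3b. Tet1 was last at 0.634 ± 0.121 RPM per 1000 bases, below every female mean of Dnmt3b and higher than only 10.3% of all genes tested.

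**Figure D1:**
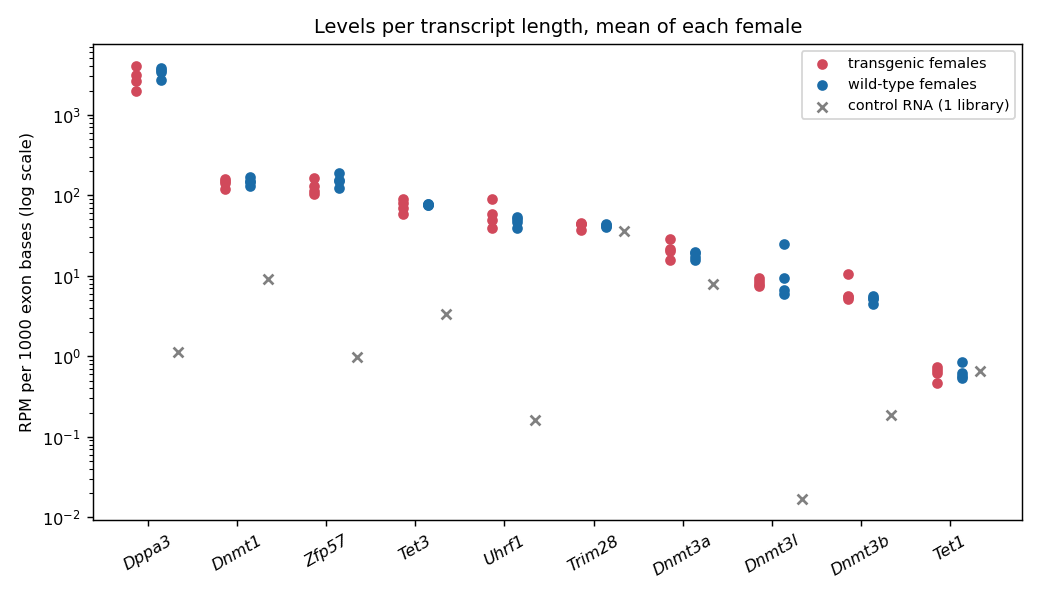
Level of each gene per 1000 exon bases on a log axis, with 1 point for the mean of each transgenic (red) and each wild-type (blue) female and a grey cross for the single control RNA library. Dppa3 lies at 1992 to 4073 RPM per 1000 bases in all 8 females and Tet1 at 0.467 to 0.856.

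Within the enzyme families a single transcript dominated. Tet3 made up 98.6 ± 0.155% of the summed per-length level of Tet1, Tet2 and Tet3 in transgenic females and 98.6 ± 0.150% in wild-type females (SD, n = 4 each). Tet2, which is not among the 10 genes and is named for this sum, stood at 4.23 ± 1.33 RPM in the transgenic and 4.00 ± 1.21 RPM in wild-type females. Dnmt1 made up 83.4 ± 5.20% of the summed per-length level of the active methyltransferase genes Dnmt1, Dnmt3a and Dnmt3b in transgenic and 86.5 ± 1.71% in wild-type females. Between the de novo enzymes, Dnmt3a held 76.8 ± 3.06% in the transgenic and 77.5 ± 3.09% in wild-type females.

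The control RNA, whose tissue is not given here, was set beside the oocytes as a reference level. A ratio to it depends on both RNAs and does not rank the transcripts within the egg. The control RNA is 1 library, so its values carry counting error only and no test was made. Dppa3 was 2773 times its control RNA level in the oocytes (21 reads in the control RNA, 0.953 RPM, counting interval of the ratio 1814 to 4480). Uhrf1 was 334 times (195 to 627, 13 control reads) and Zfp57 144 times (114 to 184, 73 control reads) the control level. Dnmt3l had 1 read in the control RNA, which puts its ratio at 589 with a counting interval of 106 to 23247.

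Dnmt3b was 31.2 times, Tet3 22.4 times and Dnmt1 15.9 times the control level, and these also lay above the control RNA in all 21 oocytes. Dnmt3a was nearer, at 2.48 times its 78.9 RPM in the control RNA. Trim28, a corepressor used in many cell types, stood at 118 RPM in the control RNA and was 1.16 times that in the oocytes, above it in 16 of 21. Tet1 was at 9.44 RPM in the control RNA and 0.965 times that in the oocytes (0.843 to 1.11), above it in 9 of 21.

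The genotypes were compared to ask whether raised AMH is accompanied by a change in these transcripts, and none of the 10 passed. With limma on female means of log2(RPM + 1), 0 of 10 passed a Benjamini-Hochberg adjusted p under 0.05 over all genes tested, where 0% of 10987 genes did. At an unadjusted p under 0.05 the count was 0 of 10, against 6.81% of all genes tested (2.78% higher and 4.03% lower in the transgenic females). With voom on reads summed per female it was also 0 of 10 at either threshold, where 698 of 10987 genes had an unadjusted p under 0.05. In a fit of single oocytes, with a random effect for the female and a block for the lane, 0 passed and 1, Zfp57, had an unadjusted p under 0.05. Over all genes tested, 1564 of 10987 had such a p in that fit. Of the 10 genes 4 were higher and 6 lower in the transgenic females, with a median log2 difference of -0.027, beside -0.014 over all genes tested. The signs of Tet1 and Trim28 turned with another scaling (reads in listed genes as the total for Tet1, median of ratios for Trim28), and those of Dnmt1, Dnmt3l and Tet3 when single females were left out. In none of the 10 did the female means of the 2 genotypes separate, which they did in 4.31% of all genes tested (1.67% higher and 2.64% lower).

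The maintenance pair differed in how closely the females resembled each other. Dnmt1, the copying enzyme (chromosome 9, 20907206 to 20959888, GRCm38), ranged from 629 to 1390 RPM (median 866) over the transgenic and from 646 to 1215 RPM (median 892) over the wild-type oocytes. Its female means were 902 ± 106 RPM in the transgenic and 932 ± 96.4 RPM in wild-type females, a log2 difference of -0.05 ± 0.13 (SE) with a 95% interval of -0.34 to 0.23. That interval leaves room for transgenic levels between 0.791 and 1.17 times the wild-type level. Uhrf1, which recruits DNMT1 to hemimethylated sites (chromosome 17, 56303321 to 56323486), had female means of 332, 145, 217 and 183 RPM in transgenic lanes 1 to 4 and of 184, 198, 144 and 172 RPM in wild-type lanes 1 to 4. The groups overlapped, and only the transgenic females of lanes 1 and 3 lay above every wild-type female.

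For Uhrf1 the log2 difference was 0.27 ± 0.22 (limma adjusted p = 0.812), and within lanes 1 to 4 it was 0.84, -0.45, 0.58 and 0.09. Leaving out the transgenic female of lane 1 gave 0.053, leaving out that of lane 2 gave 0.44, and leaving out the wild-type female of lane 3 gave 0.17. A single library carried much of the level of the transgenic female of lane 1. Oocyte C of this female had 422 RPM of Uhrf1, 340 RPM of Dnmt3a and 58.6 RPM of Dnmt3b. Each was the highest of all 21 oocytes, while sister B had 242, 224 and 31.9 RPM. Oocyte C was also the deepest library, with the largest share of reads in listed genes (94.8%) and the highest Gata4 level. The part of these library properties in its values was not tested.

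The de novo group went the same way in lane 1. Dnmt3a, the de novo methyltransferase of the growing oocyte (chromosome 12, 3806007 to 3914443), had female means of 282, 156, 215 and 203 RPM in transgenic lanes 1 to 4 and of 188, 194, 170 and 155 RPM in wild-type lanes 1 to 4. Its log2 difference was 0.26 ± 0.17 (limma adjusted p = 0.771), positive in lanes 1, 3 and 4 and -0.30 in lane 2, and it was 0.12 or 0.40 when the transgenic female of lane 1 or of lane 2 was left out. Dnmt3b, the related enzyme that matters most after implantation (chromosome 2, 153649450 to 153687730), had female means of 45.3, 22.2, 24.2 and 23.3 RPM in transgenic lanes 1 to 4 and of 22.0, 19.6, 24.2 and 23.0 RPM in wild-type lanes 1 to 4. The transgenic female of lane 1 stood alone, and the other 7 females lay within 19.6 to 24.2 RPM.

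Dnmt3b was the 1 gene of the 10 whose transgenic female was the higher in all 4 lanes, as in 7.97% of all genes tested, but within lanes 2 to 4 the log2 differences were 0.10, 0.01 and 0.03. Over all females its log2 difference was 0.28 ± 0.23 (limma adjusted p = 0.812), but 0.051 once the transgenic female of lane 1 was left out. Leaving out only oocyte C of that female was a choice made after the data were seen. The log2 differences of Dnmt3a, Dnmt3b and Uhrf1 were then 0.19, 0.17 and 0.17. Reads of Dnmt3a and Dnmt3b could include those of the antisense genes Dnmt3aos and Dnmt3bos, because the sources used here do not state that strand was kept.

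Dnmt3l, the cofactor of DNMT3A (chromosome 10, 78041947 to 78063622), was uneven on the wild-type side. It ranged from 19.0 to 33.9 RPM (median 21.5) over the transgenic and from 10.9 to 92.3 RPM (median 19.5) over the wild-type oocytes. The wild-type female of lane 4 averaged 66.0 RPM, from oocytes at 39.8 and 92.3 RPM, whereas the other 3 wild-type females averaged 17.8, 24.8 and 15.9 RPM. The log2 difference was -0.18 ± 0.34 (limma adjusted p = 0.907), and without that female it was 0.23. Without oocyte B of that female alone, a choice made after the data were seen, it was -0.032, and leaving out the wild-type female of lane 1 or lane 3 gave -0.35 or -0.40. Dnmt3l overlaps Aire on the opposite strand, and reads of the 2 cannot be told apart without strand.

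**Figure D2:**
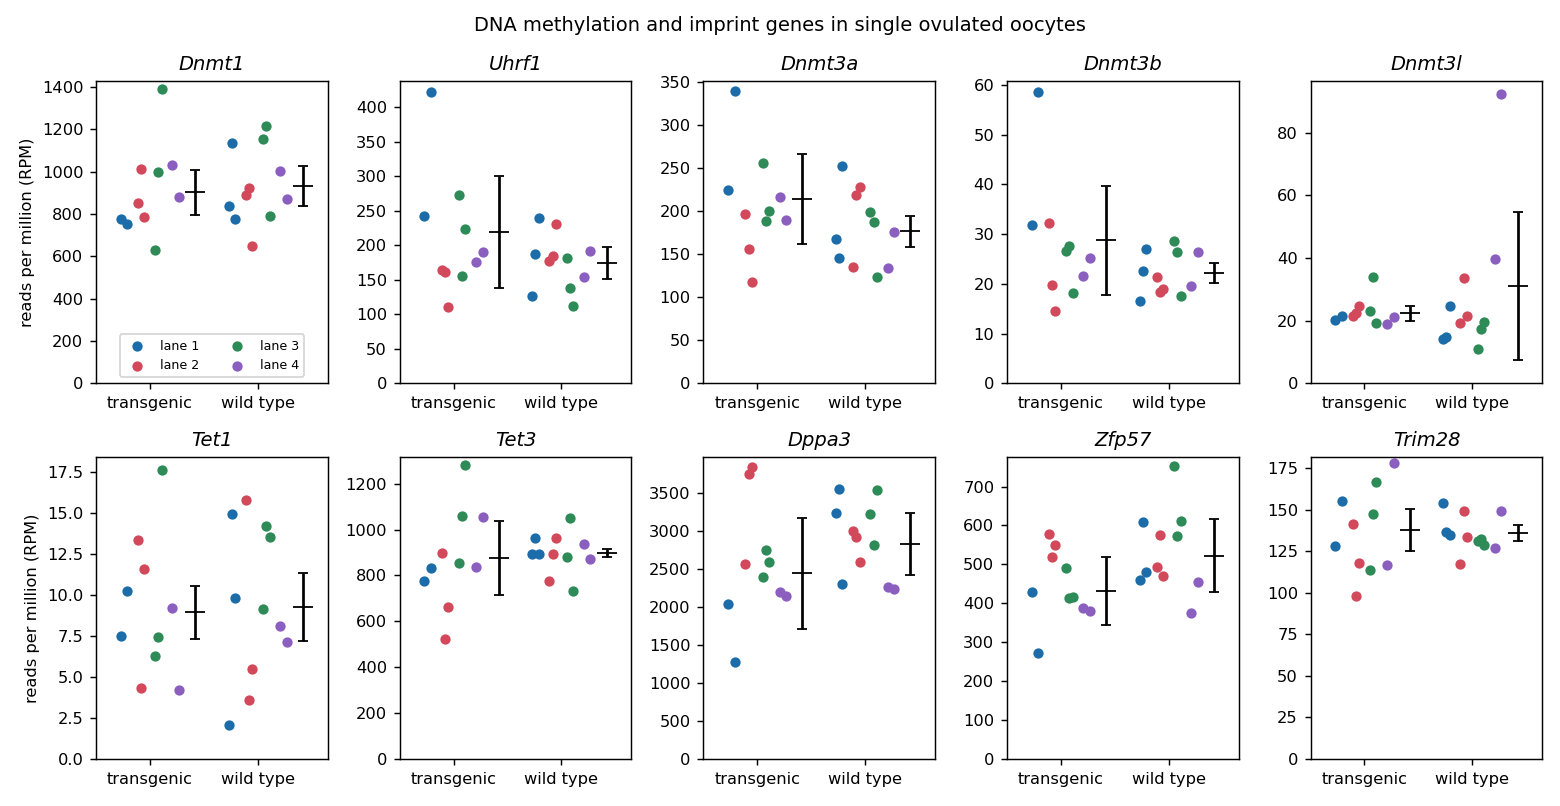
RPM of each gene in every oocyte, transgenic at the left and wild type at the right of each panel, coloured by sequencing lane; the black mark and bar give the mean and SD of the 4 female means. The transgenic oocyte C of lane 1 has the highest Uhrf1 (422), Dnmt3a (340) and Dnmt3b (58.6) and the lowest Dppa3 (1279) and Zfp57 (273), and a wild-type oocyte of lane 4 has the highest Dnmt3l (92.3).

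The TET genes gave small differences with different precision. Tet3 (chromosome 6, 83362373 to 83441678) ranged from 521 to 1280 RPM (median 845) over the transgenic and from 732 to 1052 RPM (median 893) over the wild-type oocytes. Its female means were 877 ± 162 RPM in the transgenic and 897 ± 17.5 RPM in wild-type females, so the wild-type females were much alike and the transgenic ones spread on both sides of them. The log2 difference was -0.06 ± 0.15, with a 95% interval of -0.38 to 0.25. Tet1, an enzyme of primordial germ cells and embryonic stem cells (chromosome 10, 62804570 to 62899118), averaged 8.94 ± 1.62 RPM in the transgenic and 9.28 ± 2.08 RPM in wild-type females. Its log2 difference was 0.01 ± 0.24, while the means in RPM ran the other way, and the 95% interval of -0.50 to 0.52 is wide.

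Of the protective factors, Dppa3 and Zfp57 were each lower in the transgenic female in 3 of 4 lanes without passing, and Trim28 in 2 of 4. Dppa3 (chromosome 6, 122626410 to 122630272) had female means of 1659, 3393, 2578 and 2174 RPM in transgenic lanes 1 to 4 and of 3038, 2844, 3199 and 2252 RPM in wild-type lanes 1 to 4. The groups overlapped, and both the lowest and the highest female were transgenic. The log2 difference was -0.25 ± 0.20 (limma adjusted p = 0.807), within lanes 1 to 4 it was -0.89, 0.23, -0.31 and -0.05, and it was -0.074 or -0.42 when the transgenic female of lane 1 or of lane 2 was left out. Zfp57, the imprint-binding zinc finger protein (chromosome 17, 37001163 to 37010635), had female means of 351, 549, 440 and 384 RPM in transgenic lanes 1 to 4 and of 516, 513, 646 and 415 RPM in wild-type lanes 1 to 4. It was lower in the transgenic female in lanes 1, 3 and 4 and higher in lane 2.

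Zfp57 had the smallest p of the 10 genes, 0.128 unadjusted and 0.764 adjusted (limma), with a log2 difference of -0.28 ± 0.17 and a 95% interval of -0.66 to 0.09. Over the other settings its adjusted p ran from 0.242 with single oocytes to 0.999. Leaving out the transgenic female of lane 1 or the wild-type female of lane 3 gave -0.18 each. Trim28, the corepressor that ZFP57 recruits (chromosome 7, 13024152 to 13031035), was the steadiest, at 138 ± 12.6 RPM in the transgenic and 136 ± 4.89 RPM in wild-type females, a log2 difference of -0.00024 ± 0.13. Its 95% interval allows transgenic levels between 0.818 and 1.22 times the wild-type level. In the annotation used here (GENCODE M21) Trim28 overlaps Zbtb45 on the opposite strand.

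**Figure D3:**
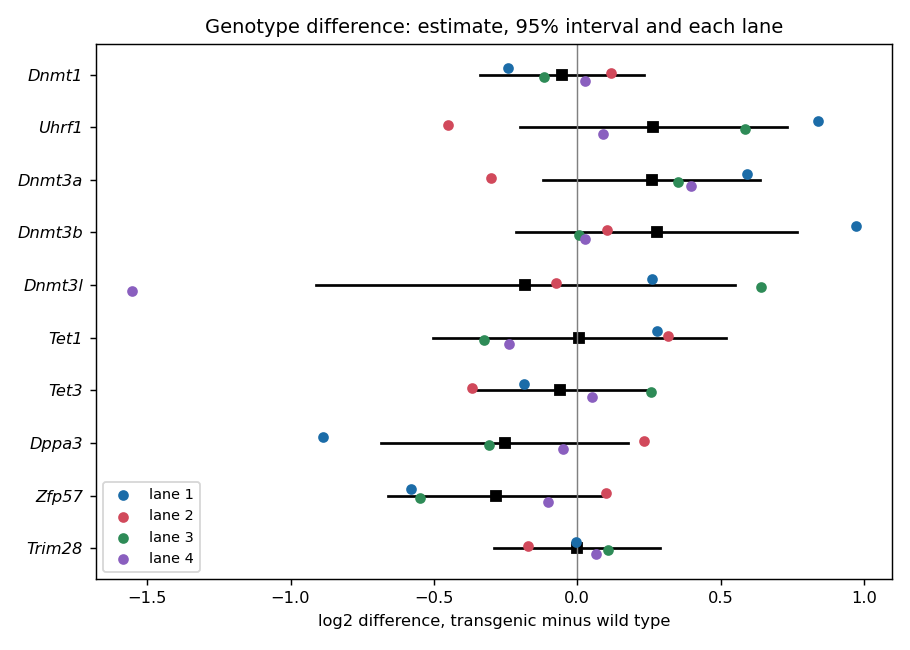
Log2 difference (transgenic minus wild type) of each gene, with a square for the limma estimate, a line for its 95% interval and coloured points for the difference within each lane. All 10 intervals include 0, and single lane points scatter widely, from -1.55 (Dnmt3l, lane 4) to 0.97 (Dnmt3b, lane 1).

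Sister oocytes of the same female differed by amounts that depended on the gene. The pooled SD of log2(RPM + 1) between sisters was smallest for Zfp57 (0.201), Trim28 (0.219), Tet3 (0.238) and Dppa3 (0.242) and largest for Tet1 (0.787), beside a median of 0.410 over all genes tested. Since low genes vary more, each gene was also set beside genes within 1.5 times its own mean RPM. Tet1 varied more than 92.8% of the 1783 genes at its level, with oocytes between 2.05 and 17.6 RPM. Uhrf1, Dnmt1 and Dnmt3a varied more than 85.1%, 84.7% and 84.4% of genes at their levels, and Trim28, Zfp57 and Dppa3 more than 30.1%, 36.4% and 41.9%.

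In RPM, some of the genes rose and fell together from oocyte to oocyte. Correlations below are Pearson's r of log2(RPM + 1) over 21 oocytes, given as a description without a p, since sisters share a female, all points share the scaling to their library, and 45 pairs were computed. Dnmt3a was high where Uhrf1 was high (r = 0.836) and Dnmt3b with both (0.691 with Dnmt3a and 0.703 with Uhrf1). Dppa3 ran against all 3, at r = -0.742 with Dnmt3a, -0.745 with Dnmt3b and -0.769 with Uhrf1. Dppa3 went with Zfp57 (0.792), and Tet3 with Trim28 (0.746). Over all 21 oocytes Dnmt1, Dnmt3l and Tet1 had no r beyond 0.351 in size with any of the 10, but within the 11 wild-type oocytes r was -0.738 for Dnmt3l with Dppa3, -0.576 for Dnmt3l with Zfp57 and -0.765 for Tet1 with Trim28. Within the 10 transgenic oocytes these were 0.322, 0.140 and 0.280, and the difference between genotypes was not tested. Over all 21 oocytes, as deviations from the mean of their own female, r of these pairs was -0.147, 0.002 and -0.052. The wild-type female of lane 4 had the highest Dnmt3l (66.0 RPM) and the lowest Dppa3 (2252 RPM) and Zfp57 (415 RPM) of the wild-type females.

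Single oocytes show the relation of Dppa3 to Dnmt3a and Uhrf1 in levels, and exceptions to it. Transgenic oocyte C of lane 1 had 1279 RPM of Dppa3 with 340 RPM of Dnmt3a and 422 RPM of Uhrf1. Transgenic oocyte C of lane 2 had 3856 RPM of Dppa3 with 117 RPM of Dnmt3a and 111 RPM of Uhrf1. Wild-type oocyte C of lane 3 resembled the second, at 3552 RPM of Dppa3, 123 RPM of Dnmt3a and 111 RPM of Uhrf1, while the highest Dnmt3a and Uhrf1 among wild-type oocytes (252 and 240 RPM, oocyte C of lane 1) came with 2308 RPM of Dppa3. The wild-type oocytes of lane 4 did not follow: with the lowest Dppa3 of the wild-type oocytes (2268 RPM in A and 2235 RPM in B) they had 134 and 176 RPM of Dnmt3a and 154 and 191 RPM of Uhrf1.

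**Figure D4:**
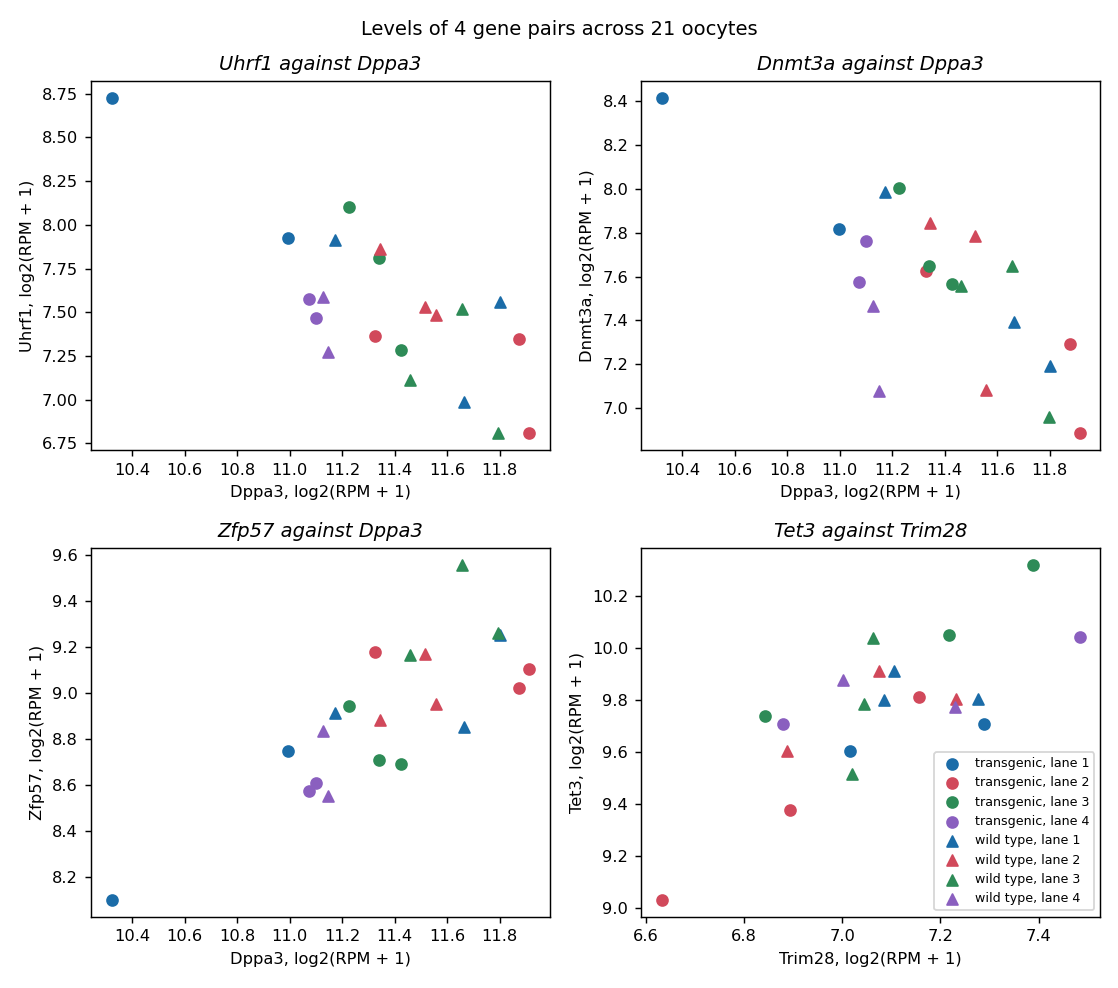
Log2(RPM + 1) of 4 pairs of genes in the 21 oocytes, circles for transgenic and triangles for wild type, coloured by lane. Uhrf1 and Dnmt3a are low where Dppa3 is high (r = -0.769 and -0.742), Zfp57 is high where Dppa3 is (0.792), and Tet3 where Trim28 is (0.746); the isolated point at the low end of Dppa3 is transgenic oocyte C of lane 1.

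Most of these relations were also present among sisters. With each oocyte taken as its deviation from the mean of its own female, r was -0.799 for Dppa3 with Dnmt3a, -0.728 with Dnmt3b and -0.668 with Uhrf1, 0.756 for Dnmt3a with Uhrf1, and 0.753 for Tet3 with Trim28. For Dppa3 with Zfp57 it was 0.422, lower than over all oocytes. With genotype and lane fitted first, r was -0.793, -0.743 and -0.796 for Dppa3 with Dnmt3a, Dnmt3b and Uhrf1, and 0.652 for Dppa3 with Zfp57.

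Several relations were weaker by rank or over part of the oocytes. Spearman's rho was -0.618, -0.561 and -0.625 for Dppa3 with Dnmt3a, Dnmt3b and Uhrf1, 0.804 for Dnmt3a with Uhrf1, 0.730 for Dppa3 with Zfp57 and 0.626 for Tet3 with Trim28. Without the 2 oocytes farthest from the median of the first gene of a pair, Pearson's r was -0.541, -0.436 and -0.534 for Dnmt3a, Dnmt3b and Uhrf1 with Dppa3, 0.711 for Dnmt3a with Uhrf1, 0.676 for Dppa3 with Zfp57 and 0.543 for Tet3 with Trim28. The relation of Dnmt3b with Dnmt3a fell to 0.422. That of Dnmt3b with Uhrf1 fell to 0.360, so it rests in large part on those oocytes. Without transgenic oocyte C of lane 1, r was -0.621, -0.537 and -0.614 for Dppa3 with Dnmt3a, Dnmt3b and Uhrf1, 0.766 for Dnmt3a with Uhrf1, 0.669 for Dppa3 with Zfp57 and 0.782 for Tet3 with Trim28. Within the 10 transgenic oocytes r of Dppa3 was -0.914 with Dnmt3a, -0.850 with Dnmt3b and -0.860 with Uhrf1. In the 11 wild-type oocytes it was -0.387, -0.308 and -0.485. For Dnmt3b, r was 0.842 with Dnmt3a and 0.773 with Uhrf1 in transgenic oocytes, against 0.353 and 0.440 in wild-type oocytes. For Tet3 with Trim28 it was 0.838 in transgenic and 0.266 in wild-type oocytes. These differences between genotypes were not tested. Library properties moved along with the same axis: over the 21 oocytes, r with the library total was -0.629 for Dppa3, -0.577 for Zfp57, 0.542 for Dnmt3b, 0.498 for Uhrf1 and 0.359 for Dnmt3a. With the share of reads in listed genes it was -0.637 for Dppa3, -0.585 for Zfp57, 0.535 for Dnmt3b, 0.509 for Uhrf1, 0.423 for Dnmt3a and -0.666 for Dnmt1. Among sisters, as deviations from the mean of their female, r with that share was -0.460 for Dppa3, -0.174 for Zfp57, 0.391 for Dnmt3b, 0.405 for Uhrf1, 0.426 for Dnmt3a and -0.828 for Dnmt1. The part of these properties in the relations was not tested.

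**Figure D5:**
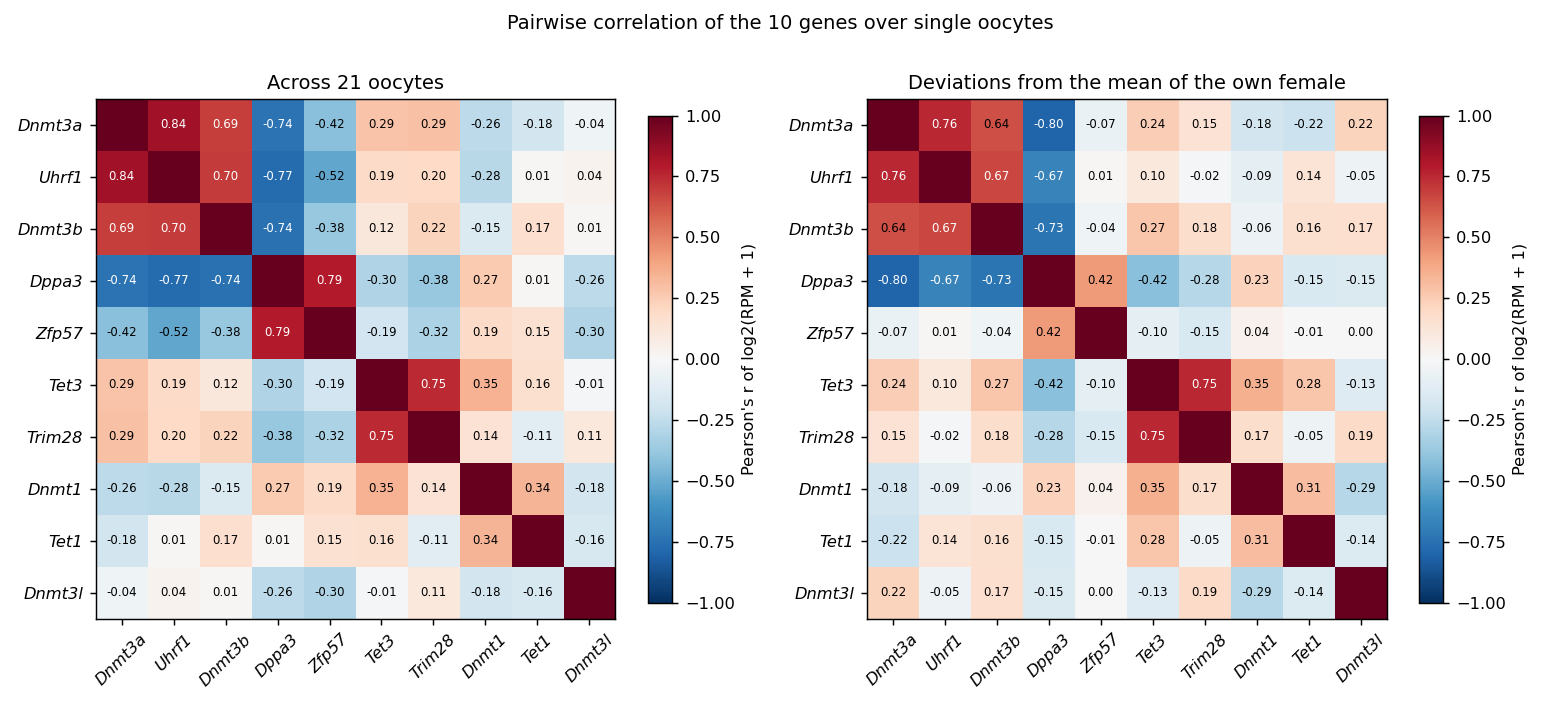
Pearson's r between the 10 genes over 21 oocytes (left) and over deviations from the mean of the own female (right), from blue (negative) to red (positive). The Dnmt3a, Uhrf1 and Dnmt3b block and its negative relation to Dppa3 are present on both sides, and Zfp57 with Dppa3 is weaker on the right (0.422 against 0.792).

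Correlations of this size were also found with genes outside the 10. Of the 10986 other genes tested, 3.30% had an r of -0.7 or below with Dppa3 and 2.84% an r of 0.7 or above. For Dnmt3a 1.90% and for Uhrf1 1.48% had an r of 0.7 or above, for Tet3 0.692% and for Trim28 0.127%. The genes most like Dppa3 over the oocytes were Ppih (r = 0.897), a spliceosomal cyclophilin, Omt2a (0.894), an oocyte-enriched transcript, and Cks2 (0.881), a cyclin-dependent kinase subunit. Most like Dnmt3a were Axin1 (0.902), a scaffold of WNT signalling, the transcription factor gene Foxo1 (0.885) and Csad (0.868), an enzyme of taurine synthesis. Most like Uhrf1 were Cds1 (0.862), Lrrc8b (0.841) and the cell cycle transcription factor gene Mybl2 (0.840).

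Tet3 was followed most closely by Fam168a (0.893), the chromatin remodeller gene Arid1a (0.884) and Sh3pxd2a (0.882), and Trim28 by Ppargc1b (0.802), Foxk1 (0.783) and Socs7 (0.755). For Zfp57 the 3 most alike were Ccdc12 (0.873), Gng3 (0.843) and the respiratory complex I gene Ndufb5 (0.831). For Dnmt1 they were Iqcf5 (0.838), Acp1 (0.797) and Rps6 (0.782), and for Dnmt3b Pard3 (0.813), Sec31a (0.802) and Brap (0.792). Iqcf5 and Rps6 had low means of 3.20 and 1.25 RPM, beside a filter of 1 RPM. Dnmt3l was followed by Shisa5 (0.844) and the tubulin genes Tuba1c (0.840) and Tubb2a (0.831). Tet1 had no gene at or above 0.7, with Pwp2 (0.684), Usp25 (0.656) and Smad5 (0.647) at the top.

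Because Dnmt3a, Uhrf1 and Dnmt3b varied together, as did Tet3 and Trim28, the 250 bases before an annotated start of these genes and of Zfp57 are shown, for their density of CpG, the dinucleotide these proteins act on. The sequences are from RefSeq (GRCm38.p6), read 5′ to 3′ on the strand of the gene, with every CpG in capitals, and each is the window whose start lies nearest the 5′ end of the gene in the table.
Dnmt3a: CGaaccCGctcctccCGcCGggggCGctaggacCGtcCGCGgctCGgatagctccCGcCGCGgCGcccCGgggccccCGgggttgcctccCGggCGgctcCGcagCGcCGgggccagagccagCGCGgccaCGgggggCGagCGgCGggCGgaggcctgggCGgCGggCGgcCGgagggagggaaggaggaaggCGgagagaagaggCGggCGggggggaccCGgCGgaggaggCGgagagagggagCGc
Uhrf1: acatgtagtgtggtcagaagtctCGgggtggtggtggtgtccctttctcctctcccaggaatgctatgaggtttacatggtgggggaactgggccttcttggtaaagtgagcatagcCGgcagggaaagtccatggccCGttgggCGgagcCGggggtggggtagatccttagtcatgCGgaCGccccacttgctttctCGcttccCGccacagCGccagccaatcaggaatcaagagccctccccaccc
Dnmt3b: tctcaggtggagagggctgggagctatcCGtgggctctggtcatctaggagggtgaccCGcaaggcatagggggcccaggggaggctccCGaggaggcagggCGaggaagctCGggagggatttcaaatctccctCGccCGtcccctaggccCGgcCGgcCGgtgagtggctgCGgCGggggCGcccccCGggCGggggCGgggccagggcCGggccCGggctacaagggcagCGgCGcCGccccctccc
Zfp57: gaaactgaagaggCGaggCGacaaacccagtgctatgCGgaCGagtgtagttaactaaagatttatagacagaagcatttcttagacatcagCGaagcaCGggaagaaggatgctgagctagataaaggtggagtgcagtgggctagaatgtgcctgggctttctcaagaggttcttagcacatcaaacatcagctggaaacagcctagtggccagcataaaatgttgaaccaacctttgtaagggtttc
Tet3: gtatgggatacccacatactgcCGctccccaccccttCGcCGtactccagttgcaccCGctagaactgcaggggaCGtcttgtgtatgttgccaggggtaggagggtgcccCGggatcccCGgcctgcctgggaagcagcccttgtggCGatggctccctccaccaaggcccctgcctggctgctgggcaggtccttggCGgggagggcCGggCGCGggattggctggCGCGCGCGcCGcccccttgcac
Trim28: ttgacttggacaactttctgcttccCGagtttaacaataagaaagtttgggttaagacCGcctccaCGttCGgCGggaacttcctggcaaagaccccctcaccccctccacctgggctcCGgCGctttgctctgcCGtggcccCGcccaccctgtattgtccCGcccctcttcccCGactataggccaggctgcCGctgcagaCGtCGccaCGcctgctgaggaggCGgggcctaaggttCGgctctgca

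The Dnmt3a window was chr12:3806730-3806979 on the plus strand. The Uhrf1 window was chr17:56303087-56303336 on the plus strand. The Dnmt3b window was chr2:153649199-153649448 on the plus strand. The Zfp57 window was chr17:37000913-37001162 on the plus strand. The Tet3 window was chr6:83441679-83441928 on the minus strand. The Trim28 window was chr7:13023902-13024151 on the plus strand. These windows held 38 CpG for Dnmt3a, 10 for Uhrf1, 21 for Dnmt3b, 6 for Zfp57, 17 for Tet3 and 17 for Trim28. The median over 32851 windows of the same length was 6. Of all those windows, 37.8% held at least 10 CpG, 27.3% at least 15, 17.9% at least 20 and 5.94% at least 30. The letters GGGCGG, the core of the GC box, counted on both strands, stood 5 times in Dnmt3a, 3 times in Dnmt3b, 2 times in Trim28, and once each in Uhrf1 and Tet3, and did not occur in this window of Zfp57; 32.7% of all windows hold them. The GC box contains a CpG, so the 2 counts overlap. RefSeq gives a second Uhrf1 window with 30 CpG. For Dnmt1, which has different annotated starts, it gives 3 windows with 2, 7 and 26 CpG, of which the 1 nearest the 5′ end of the gene in the table has 2. The table holds 1 value per gene, so the start in use cannot be told from it. Windows were found for 9 of the 10 genes, the exception being Dppa3.

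The partners of these proteins were described from 6 lists. Counts at an unadjusted p under 0.05 stand beside a share of 6.81% over all genes tested. Of 17 tested partners of methylation 11 were higher and 6 lower in the transgenic females (median log2 difference 0.07), and 0 passed (limma), with 0 at an unadjusted p under 0.05. The histone demethylase gene Kdm1b, needed for imprints to be set in the mouse oocyte, stood at 181 ± 39.5 RPM in the transgenic and 134 ± 17.6 RPM in wild-type females, and was higher in the transgenic female in 2 of 4 lanes. Setd2, which writes the histone mark that guides DNMT3A in the oocyte, stood at 111 ± 22.1 and 92.3 ± 13.0 RPM in the transgenic and wild-type females (limma adjusted p = 0.790). It was higher in the transgenic female in 4 of 4 lanes, as were 7.97% of all genes tested. Cdca7 (18.2 ± 5.09 against 13.7 ± 1.05 RPM, transgenic against wild type) and Trdmt1, an RNA methyltransferase (41.2 ± 6.36 against 34.8 ± 3.40 RPM), were the others with the smallest p. Usp7, a deubiquitinase that binds DNMT1 and UHRF1, was the most abundant (550 ± 83.5 against 527 ± 35.2 RPM), followed by the remodeller gene Hells (206 ± 31.1 against 206 ± 15.5 RPM).

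Of 18 tested genes of oxidation and base excision 10 were higher and 8 lower (median 0.03), and 0 passed (limma), with 0 at an unadjusted p under 0.05. Tdg, the glycosylase that removes TET products in many cells, had a mean under 1 RPM and was not tested. The glycosylase gene Neil3 was the most abundant of the list (608 ± 66.9 RPM in the transgenic and 596 ± 20.4 RPM in wild-type females, against 0.454 RPM in the control RNA). The ubiquitin ligase genes Ddb1 (305 ± 69.3 against 276 ± 15.3 RPM, transgenic against wild type) and Cul4b (212 ± 25.6 against 175 ± 16.2 RPM) came next. Polb, Ung and Apex1, which act in base excision repair, stood at 31.5 ± 8.49, 14.2 ± 3.64 and 9.37 ± 1.63 RPM in transgenic females, against 43.0 ± 12.6, 19.6 ± 6.07 and 11.7 ± 2.41 RPM in wild-type females.

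Of 27 tested genes of imprint protection and silencing 13 were higher and 14 lower (median -0.01). None passed with limma and 1 had an unadjusted p under 0.05. This was Zfp445, a zinc finger protein that protects imprints alongside ZFP57, at 10.1 ± 2.34 RPM in the transgenic and 6.38 ± 1.31 RPM in wild-type females, a log2 difference of 0.59 ± 0.23 (limma adjusted p = 0.724) and higher in 3 of 4 lanes. It lay far below Zfp57 in reads. The heterochromatin genes Cbx5 (26.9 ± 7.77 against 35.6 ± 8.03 RPM, transgenic against wild type) and Cbx1 (148 ± 36.2 against 183 ± 33.0 RPM) and the maternal-effect gene Ooep (655 ± 175 against 832 ± 210 RPM) had the next smallest p. Nlrp14, which in mice keeps UHRF1 stable in the oocyte, was the most abundant (2078 ± 343 against 1684 ± 554 RPM), followed by Atrx (967 ± 117 against 998 ± 69.4 RPM).

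Of 12 tested genes for readers of methylated DNA and subunits of the NuRD complex, listed together, 3 were higher and 9 lower (median -0.10). None passed (limma), with 1 at an unadjusted p under 0.05. This was Mbd3, a subunit of the NuRD complex, at 19.4 ± 1.26 RPM in the transgenic and 26.2 ± 4.35 RPM in wild-type females, lower in the transgenic female in all 4 lanes, as were 10.3% of all genes tested. Chd4 (166 ± 30.9 against 187 ± 27.1 RPM, transgenic against wild type) and Gatad2b (124 ± 42.3 against 143 ± 35.4 RPM) were also among the smallest p of the list and were higher in the transgenic female in 1 and 2 of 4 lanes. Gatad2a (293 ± 83.7 against 299 ± 34.5 RPM) and Mta3 (234 ± 50.5 against 254 ± 50.4 RPM) were the most abundant and were higher in the transgenic female in 3 and 1 of 4 lanes.

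Of 14 tested genes of the methyl donor cycle 8 were higher and 6 lower (median 0.03), and 0 passed (limma), with 1 at an unadjusted p under 0.05. This was Ahcyl2, at 4.75 ± 1.02 RPM in the transgenic and 7.72 ± 1.92 RPM in wild-type females, a log2 difference of -0.65 ± 0.24 (limma adjusted p = 0.724). It was lower in all 4 lanes, as were 10.3% of all genes tested. Mat2b, the regulatory subunit of S-adenosylmethionine synthesis, was the most abundant (3399 ± 353 against 3231 ± 351 RPM, transgenic against wild type), and the folate enzyme Shmt2 (101 ± 13.3 against 100.2 ± 11.5 RPM) followed. Mat1a, Mtr and Shmt1 stood at 3.30 ± 0.583, 30.6 ± 8.25 and 8.07 ± 2.20 RPM in transgenic females, against 4.96 ± 1.69, 23.9 ± 1.34 and 10.5 ± 4.18 RPM in wild-type females.

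Of 23 tested imprinted genes 12 were higher and 11 lower (median 0.02), and 0 passed (limma), with 0 at an unadjusted p under 0.05. Another 23 were under the filter of 1 RPM, H19, Igf2 and Peg10 among them. Gnas (331 ± 79.4 against 293 ± 41.3 RPM, transgenic against wild type), Mest (316 ± 78.9 against 273 ± 59.6 RPM) and Blcap (212 ± 93.2 against 173 ± 35.4 RPM) were the most abundant. Copg2 (181 ± 22.3 against 152 ± 18.5 RPM), Tssc4 (11.1 ± 3.38 against 8.53 ± 2.16 RPM), Plagl1 (3.27 ± 0.902 against 2.34 ± 0.676 RPM) and Impact (2.92 ± 1.15 against 4.17 ± 1.34 RPM) had the smallest p. Counts of transcripts do not show from which parental allele they came or whether any region was methylated.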

How the data were processed

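Single oocytes were lysed, and complementary DNA was amplified with SMART-Seq v4 and made into libraries with ThruPLEX, per the labels' protocols. Trim Galore, FastQC and HISAT2 are named without versions, with the builds GRCm39 and mm39, per the submitters' processing notes. Which tool and annotation were used for counting is not given in the sources. Coordinates in the table are those of GRCm38 (99.7% of 25035 matched gene IDs overlap GENCODE M21, and 69.0% have the same start). The authors deposited log2 values, scaled within each library. The name of the table says RPKM, yet no division by length was made, and the unit is log2 RPM. Genes with no read are held at 0.9 reads, and from this 100% of 256342 values under 2000 reads came out whole within 0.02 (99.84% of all values above 0). Of 24 samples in the labels, the library of water alone and 1 transgenic oocyte (A, lane 1) are not analysed here.

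Tested genes (10987) had a mean over the oocytes of 1 RPM or more and were compared on log2(RPM + 1), which understates changes of low genes, averaged over the oocytes of each female. Tests used limma 3.58.1 (trend) in R 4.3.3. They were two-sided, adjusted by Benjamini-Hochberg, read at a threshold of 0.05, and checked on simulated data. The changes in the simulated data were all far larger than the estimates of the genes examined here. That check therefore does not show whether differences of their size would be found. Nothing says whether the females were litter mates. Females are paired by lane, the batch in the labels, which holds 1 of each genotype. The deviations from the group mean of the females in a lane correlated at -0.04, 0.084, 0.342 and 0.317 in lanes 1 to 4 (median of other pairs -0.055). Per-length values used all exons of GENCODE M21 basic transcripts. Intervals of the control RNA are exact Poisson intervals (95%) that cover only counting error, because reads after amplification are not independent molecules.

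The 10 genes and the 6 lists were chosen with earlier results of these data known. From each list, up to 4 genes with the smallest p and up to 3 with the highest mean RPM are named, and for each of the 10 genes the 3 genes with the highest r, without predicted genes (Gm with digits, Rik) and pseudogenes (-ps). Genes of 2 lists that this rule names are not reported here. Tet2, Amh, Gata4, Tdg, H19, Igf2 and Peg10 are named outside this rule. Alternatives covered the pseudocount, the filter, the scaling, the lane as a block, single oocytes, voom on reads, and each female left out.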

Additional observations from a re-analysis of the deposited data

Results flagged for a closer look

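Among the 20 groups of 4 female means on the log2 scale (10 genes in each genotype), 3 held a female whose gap to the nearest of the others was more than 0.829 of the range of its group. With 4 independent values from a normal distribution, this happens in about 1 group in 20, that is 5%. The groups here share females and the scaling to each library, and the share over all genes tested was not computed. The count of 3 therefore cannot be read as an excess. The Dnmt3b level of the transgenic female of lane 1 (45.3 RPM) lay apart from the other transgenic females by 0.833 of the range, above them. The Tet1 level of the wild-type female of lane 3 (12.3 RPM) lay above the other wild-type females by 0.835 of the range. The Trim28 level of the transgenic female of lane 2 (119 RPM) lay below the other transgenic females by 0.887 of the range.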

How the results depend on the processing

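None of the 10 genes passed the threshold under any of the 18 other settings. At an unadjusted p under 0.05 there were 3 of them without the transgenic female of lane 2 (smallest adjusted p 0.708, limma). There was 1 when the wild-type female of lane 4 was left out (0.417). Over all genes tested the counts in these 2 settings were 768 and 1260 of 10987. Over all genes limma called 0 under 16 of the settings, 12 in the fit of single oocytes with a random effect for the female and the lane as a replicate block, and between 0 and 1 without single females (1 without the transgenic female of lane 1); the cause was not tested. With the lane as a replicate block alone the count was 0, and the block changed no call. Dnmt3a, Dnmt3b, Uhrf1, Dppa3 and Zfp57 kept their direction under all 18 settings. Without single females, log2 differences ran from -0.114 to 0.0173 for Dnmt1, -0.404 to 0.232 for Dnmt3l, -0.0651 to 0.176 for Tet1, -0.159 to 0.0516 for Tet3 and -0.0294 to 0.0666 for Trim28. The sign of Tet1 also turned with reads in listed genes as the total (-0.00335), with voom (-0.0389), without transgenic oocyte C of lane 1 (-0.0439) and without wild-type oocyte B of lane 4 (-0.0137). That of Trim28 turned with median-of-ratios scaling (0.0343), with voom (0.0110) and without that oocyte of lane 4 (0.0285). Leaving out single oocytes was chosen after the data were seen. The list medians moved by less than the spread between lanes, except that of the methyl donor cycle without single females (-0.0322 to 0.0900). Levels per 1000 bases moved by less than the SD over females with the median of the oocytes, whereas with the longest transcript Zfp57 moved to 184 from 141, by more than its SD of 28.8. With 4 females in each group, differences inside the 95% intervals remain compatible with the values.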
